A study of Mus musculus with 11 samples.

Results

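Mt1, Mt2 and Mt3, the metallothionein genes of mouse brain, were followed through the cell types and conditions of a single-cell RNA-seq study of cortex. They were chosen by name, 3 of 26921 genes in the count files, and all 3 had unique molecular identifiers (UMIs, 1 per captured transcript) in every library. The fourth gene of the family in the same chromosomal cluster, Mt4, had 1 UMI in all libraries together and was not followed further. Cells came from brain cortex of C57BL/6 mice, perfused, digested with papain and Liberase and depleted of myelin on bovine serum albumin, and were captured with 10X Chromium 3' chemistry. The 4 conditions were Juvenile (4 libraries, postnatal day 10, 6 mice pooled in each), Adult (3 libraries, 7 to 11 weeks, 6 mice pooled), Aged (2 libraries, 18 months, 3 mice pooled) and EAE (2 libraries, 3 mice pooled). EAE, experimental autoimmune encephalomyelitis, is a model of inflammatory demyelination. It was induced in female mice of 7 to 11 weeks with a myelin oligodendrocyte glycoprotein peptide (150 ul at 0.75 mg/ml) in complete Freund's adjuvant, followed by pertussis toxin (100 ul at 2 ug/ml). The other 3 conditions were untreated, so the adjuvant and the toxin, which adult mice did not receive, cannot be told apart from the disease in any EAE value below.

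Metallothioneins are small, cysteine-rich proteins that bind zinc and copper. Mt1 and Mt2 are widely expressed and are known to be induced by metals through the zinc-sensing transcription factor Mtf1, by glucocorticoids, by inflammatory cytokines and by oxidative stress. Mt3, first described as a growth inhibitory factor of brain, is expressed mainly in the nervous system and is not induced by metals in the same way. In brain, astrocytes and ependymal cells are known as main sources of all of them.

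On mouse build GRCm38 the genes lie in 1 cluster on the plus strand of chromosome 8, which spans 43131 bases with Mt4. Mt3 occupies chr8:94152607-94154146, Mt2 chr8:94172664-94173568 and Mt1 chr8:94179082-94180327, each a protein-coding gene with 3 exons in its main transcript. The longest stretch that any pair of the 3 transcripts shared without a mismatch was 27 bases, shorter than the 98-base reads. The gene positions are those of GENCODE. Promoter sequences of RefSeq (GRCm38.p6, plus strand), whose starts differ from them for Mt1 and Mt2, are shown because Mt1 and Mt2 varied together over the cell types and Mt3 less so. Capitals mark matches, on either strand, to the core of the metal response element that Mtf1 binds, searched as TGCGCNC and TGCACNC. The windows are chr8:94178839-94179081 for Mt1, chr8:94172368-94172617 for Mt2 and chr8:94152357-94152606 for Mt3.
Mt1: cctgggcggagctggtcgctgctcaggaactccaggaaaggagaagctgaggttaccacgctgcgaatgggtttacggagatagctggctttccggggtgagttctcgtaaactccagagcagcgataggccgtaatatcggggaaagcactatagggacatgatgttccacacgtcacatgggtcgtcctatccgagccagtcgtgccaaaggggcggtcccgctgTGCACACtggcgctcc
Mt2: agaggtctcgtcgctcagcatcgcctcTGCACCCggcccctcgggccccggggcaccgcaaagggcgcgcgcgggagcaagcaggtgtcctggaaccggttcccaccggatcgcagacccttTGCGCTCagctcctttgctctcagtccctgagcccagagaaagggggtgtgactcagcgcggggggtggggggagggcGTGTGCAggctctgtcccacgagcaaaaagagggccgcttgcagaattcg
Mt3: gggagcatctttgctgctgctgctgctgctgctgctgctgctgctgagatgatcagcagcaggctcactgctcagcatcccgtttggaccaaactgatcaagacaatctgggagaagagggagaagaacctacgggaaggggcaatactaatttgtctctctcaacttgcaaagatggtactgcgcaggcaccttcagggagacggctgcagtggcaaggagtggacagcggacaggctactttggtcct
The Mt2 window held 3 such cores, the Mt1 window 1 and the Mt3 window 0. The Mt1 window has 243 bases, and the Mt1 gene record of RefSeq starts inside it. The Mt2 window ends short of the GENCODE start. The counts thus do not refer to 1 set of starts and cannot be compared between the genes. Cores outside the windows, also just downstream of the Mt1 window, were not counted. Of 32851 mouse promoters cut to 250 bases, 21.4% held at least 1 core and 1.26% at least 3. The Mt2 window also held 1 AP-1 motif, TGACTCA, which 4.46% of the promoters held. These matches are of letters alone and were not tested as binding sites.

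The libraries held 15755504 to 34326349 UMIs and left 50625 cells after the study's filters. Cell types were rebuilt by clustering without the metallothionein genes and named from fixed markers, so that each name below stands for cells "like" that type. They were endothelial cells (ECs, 20725), microglia (Micro), choroid plexus epithelium (ChP), perivascular macrophages (PVM), mural cells (Mural), astrocytes (Astro, 1466), fibroblasts (Fibro), ependymal cells (Epend, 760), monocytes and macrophages (Mono/Mac), lymphocytes (T/NK and B), neurons (Neuron), oligodendrocytes (Oligo), neutrophils (Neutro, 437) and red blood cells (RBC, 87). Different clusters held the ECs of different conditions: cluster 4 held 91.5% of juvenile ECs, cluster 0 held 79.4% of adult and 83.7% of aged ECs, and cluster 1 held 81.1% of EAE ECs. Adult 1 stood apart from Adult 2 and Adult 3, which differed from each other by little more than counting noise over the genes of ECs and microglia (the types compared) and were summed as 1 unit, leaving 10 units in all. Adult libraries also carried more choroid plexus RNA outside choroid plexus cells, with Ttr, its most abundant transcript, at a median of 21602 CPM (UMIs of a gene per 1000000 UMIs of the cells summed) there compared with 6680 to 8736 CPM in the other conditions. The labels do not say whether libraries of a condition came from separate mice, and the paired aged and paired EAE libraries were nearly as close as Adult 2 and 3, so p-values below may measure technical spread. The same holds for Juvenile 1 and 2 and for Juvenile 3 and 4, whose ECs differed by a mean squared z over genes of 1.231 and 1.404 (1 is counting noise alone), compared with 7.713 to 9.929 between these pairs. With them summed as well, leaving 8 units, 12 of the 14 juvenile calls given below remained. The 3 aged calls remained too, but Aged 1 and Aged 2 were not summed there. That setting therefore says nothing about the spread of the aged pair.

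Astrocytes and, where recovered, ependymal cells led in all conditions. Their levels were the highest for each of the 3 genes in each unit with 1 exception in 30, Mt2 in the library EAE 2, where 18 fibroblasts reached 6765 CPM. In adult astrocytes Mt1 was 6968 CPM in Adult 1 and 10561 CPM in Adult 2+3, and in juvenile astrocytes it was 1763, 1908, 2943 and 2628 CPM in libraries 1 to 4. Aged astrocytes had 10864 and 11827 CPM and EAE astrocytes 12914 and 11968 CPM, so the juvenile libraries lay below all the others. Ependymal cells, recovered in number only from juvenile and EAE libraries, had 8254 CPM ± 296.5 (SD, n = 4) of Mt1 in Juvenile and 18388 CPM ± 1468 (SD, n = 2) in EAE. Mt3 in the same cells was 8732 CPM ± 547 (SD, n = 4) in Juvenile and 7504 CPM ± 286 (SD, n = 2) in EAE.

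**Figure D1:**
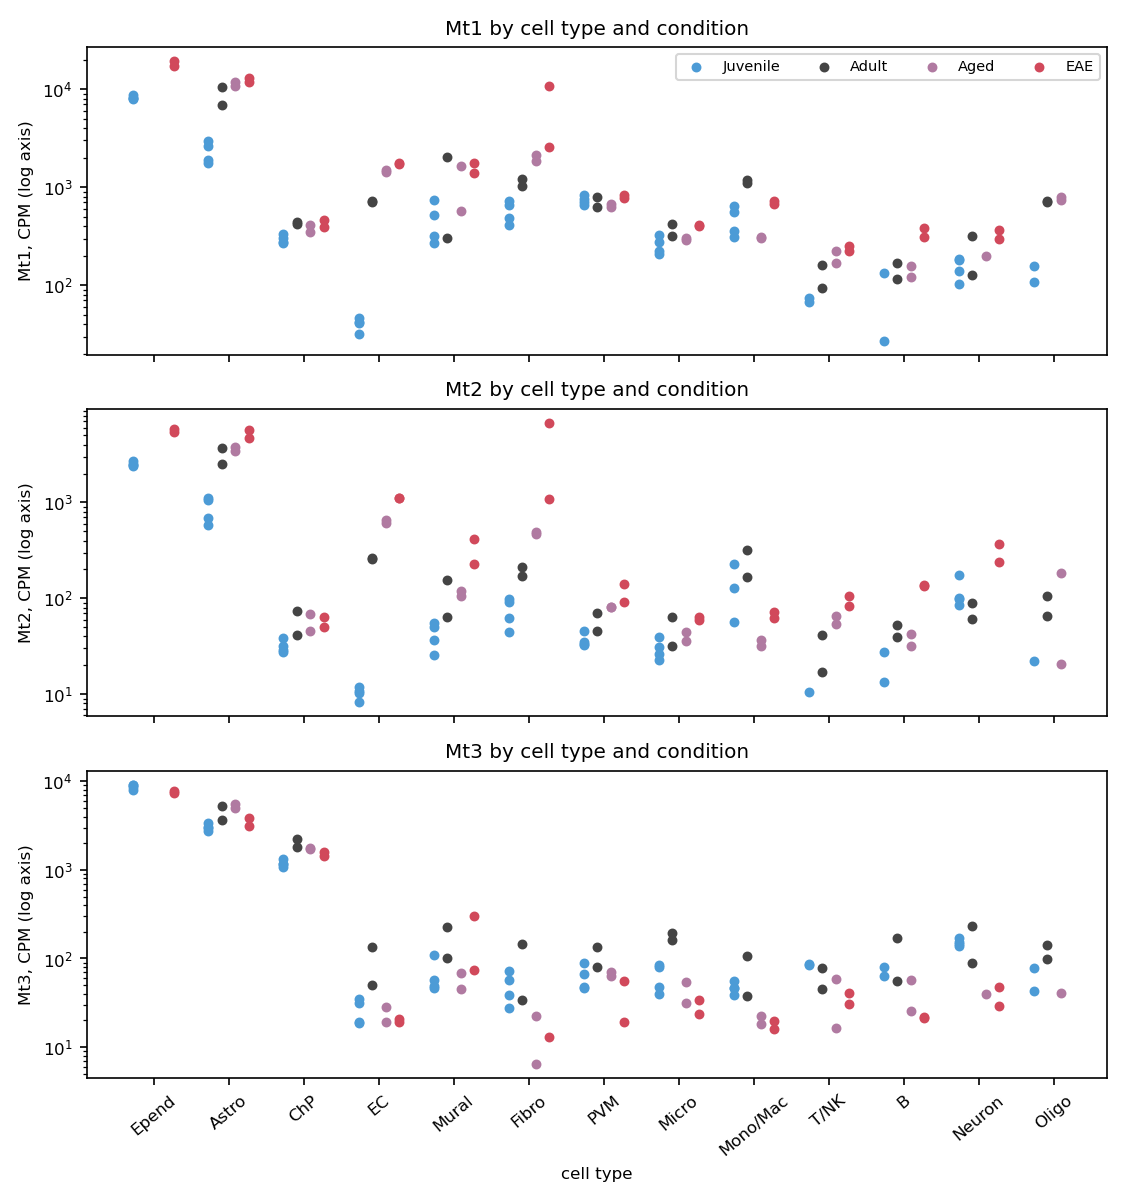
Level of Mt1, Mt2 and Mt3 (CPM, log axis) in each cell type, 1 point per unit and coloured by condition. Values of 0 are not drawn. Epend and Astro are the highest types for all 3 genes apart from Mt2 in fibroblasts of EAE 2, ChP is high for Mt3 alone, and the juvenile ECs lie below all other ECs for Mt1 and Mt2.

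Choroid plexus epithelium carried Mt3 but little Mt2. Its Mt3 was 1185 CPM ± 95.4 (SD, n = 4) in Juvenile, 2024 CPM ± 291 (SD, n = 2) in Adult, 1742 CPM ± 52.0 (SD, n = 2) in Aged and 1508 CPM ± 119 (SD, n = 2) in EAE and ranked after ependymal cells and astrocytes. Mt2 there stayed between 27.6 and 73.8 CPM in the 10 units. Because choroid plexus cells were many, they held 90.1% of the Mt3 UMIs of named adult cells. Adult ECs held 58.2% of the Mt2 UMIs and 41.0% of the Mt1 UMIs. This lead of ECs came from Adult 2+3 (10604 Mt1 and 3802 Mt2 UMIs). In Adult 1 they had 2154 Mt1 UMIs, fewer than choroid plexus cells (4366) and astrocytes (2726). Their 793 Mt2 UMIs there were fewer than the 980 of astrocytes. Perivascular macrophages had nearly level Mt1, with condition means from 655 to 801 CPM, and Mt2 of 32.4 to 140 CPM over units. Mural Mt1 varied widely within a condition, at 302.9 CPM in Adult 1 and 2023 CPM in Adult 2+3, which joins 1161.8 CPM in Adult 2 and 2842.9 CPM in Adult 3 (251 and 645 UMIs). The order of types below astrocytes was mostly unresolved: ECs (715.4 CPM), PVM (715.1 CPM) and oligodendrocytes (712.2 CPM) in Adult had overlapping units for Mt1.

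The ratio of Mt1 to Mt2 UMIs differed between types. In astrocytes it was 2.73 in Juvenile, 2.83 in Adult, 3.14 in Aged and 2.41 in EAE. In ECs it fell in the same order from 3.96 ± 0.0776 (SD, n = 4) through 2.75 ± 0.0515 (SD, n = 2) and 2.34 ± 0.0771 (SD, n = 2) to 1.56 ± 0.00234 (SD, n = 2), and the units of the 4 conditions did not overlap. The juvenile levels behind this ratio lay below the carried value of free RNA described next, and its part was not tested. The ratio was 20.3 in juvenile and 7.25 in EAE perivascular macrophages, and 6.64 to 8.78 in microglia. Over 90 sums of 14 cell types, Pearson's r of log2(CPM + 10) was 0.881 between Mt1 and Mt2, 0.55 between Mt1 and Mt3, and 0.552 between Mt2 and Mt3. These sums share libraries and therefore depth and free RNA. Among 10035 genes, those near to Mt1 after Mt2 included Cbr3 (r = 0.767), Phkg1 and 1700084C01Rik. After Mt1, those nearest to Mt2 were Fam107a (0.788), Phkg1, 1700084C01Rik and Slc25a18, a mitochondrial glutamate carrier. Those near to Mt3 included Ntrk2 (0.965), a neurotrophin receptor of astrocytes and neurons, Fam213a, Ppargc1a and Wwc1.

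RNA released by lysed cells enters droplets of other cells, and astrocytes and choroid plexus are rich in metallothionein transcripts. A value for this, called the carried value, was set by counting every UMI of Ttr in a cell type as carried from choroid plexus, and every UMI of 5 astrocyte genes (Slc1a2, Aldoc, Gja1, Ntsr2, Aqp4) as carried from astrocytes of the same library. Each was multiplied by the ratio of metallothionein to marker in its source. The measured level lay above this carried value in 94 of 109 combinations of library and recipient type for Mt1, in 87 of 109 for Mt2 and in 13 of 109 for Mt3. With 5 other choroid plexus genes in place of Ttr these counts were 96, 88 and 21, so the carried value depends on the genes that read it and is not a limit. Mt1 was above it in all 11 libraries for microglia, PVM, mural cells and Mono/Mac. Fibroblast Mt1 was above it in 5 of 11. Gja1, 1 of the 5 astrocyte genes, was itself among the top genes of the larger fibroblast cluster. The astrocyte part of the carried value in fibroblasts thus counts transcripts that may be their own. With Slc1a2 alone in place of the 5 genes, the counts over all types were 103, 101 and 15 of 109 for Mt1, Mt2 and Mt3. With all 5 genes, Mt3 was above the carried value in 0 of 11 libraries for ECs and in 0 of 11 for microglia.

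In ECs Mt1 was 3.97 to 6.28 times the carried value in Adult, 19.6 to 25.1 times in Aged and 18.9 to 20.3 times in EAE. Juvenile ECs were below it in all 4 libraries, at 0.762 to 0.93 times for Mt1 and 0.545 to 0.668 times for Mt2. That reading depended on the astrocyte genes used: with Slc1a2 alone, juvenile ECs lay above it in 4 of 4 libraries, at 2.43 to 3.28 times for Mt1 and 2.34 to 3.19 times for Mt2. The Mt1 ratio was then 5.71 to 19.9 in Adult, 28.4 to 40.3 in Aged and 94.5 to 96.2 in EAE, so its size and the order of Aged and EAE also depended on these genes. Mt3 in ECs was 0.247 to 0.404 times the carried value and stayed below 1 with every marker set tried. Per 1000 Ttr UMIs, Mt3 had a median of 3.37 UMIs in ECs, 5.25 in choroid plexus cells themselves and 213 in astrocytes.

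**Figure D2:**
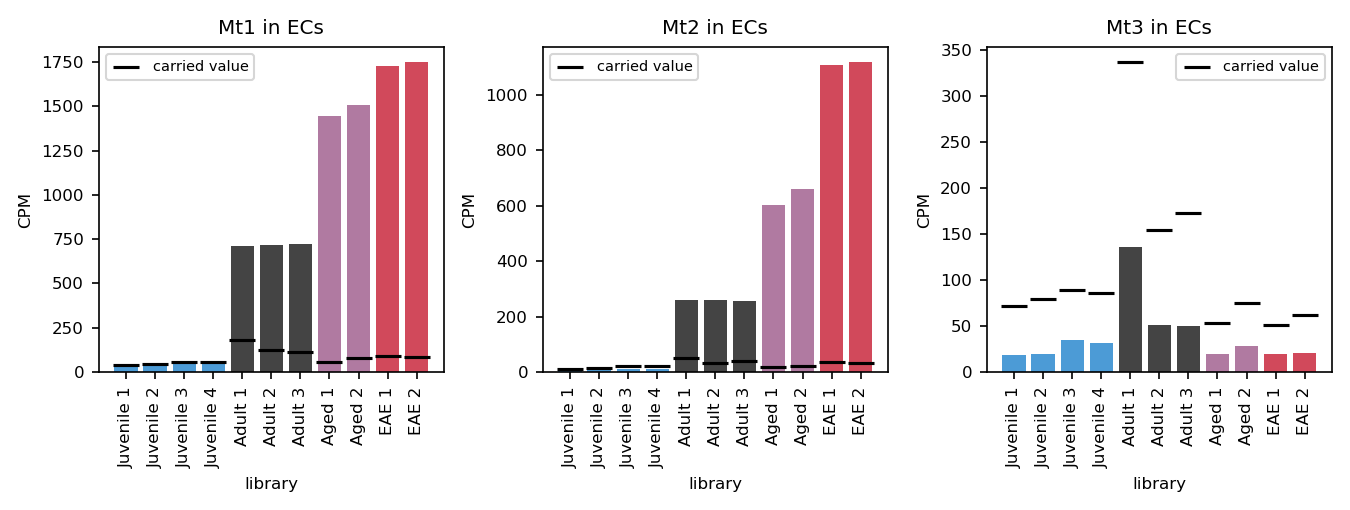
Measured level in ECs (bars, CPM from 0) of Mt1, Mt2 and Mt3 in each of the 11 libraries, with the value counted as carried from choroid plexus and astrocytes (black dashes). Mt1 and Mt2 bars stand well above the dashes in Adult, Aged and EAE and at or below them in Juvenile, and Mt3 bars are below them everywhere.

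Juvenile and adult cells were compared to see how metallothionein levels differ at postnatal day 10. Mt1 in ECs was 31.9, 41.5, 46.9 and 42.4 CPM in Juvenile 1 to 4, and 709.9 and 721 CPM in the adult units. In the edgeR quasi-likelihood test it was lower in Juvenile by a log2 fold change of -4.05 ± 0.13 (SE), with an adjusted p of 9.22e-10. Mt2 in ECs was 8.21, 10.2, 11.8 and 10.8 CPM in Juvenile, and 261.3 and 258.5 CPM in Adult, and the log2 fold change was -4.56 ± 0.12 (adjusted p = 1.63e-10). Both differences far exceeded the spread between units, and both remained called in all 18 alternative settings. Of all genes tested in ECs, 22% were called lower in this comparison. Within cluster 4, which held most juvenile ECs, the difference was smaller, at 42.06 CPM of Mt1 and 9.845 CPM of Mt2 in juvenile ECs compared with 166.3 and 45.5 CPM in its 276 adult ECs, given without a test. Without Adult 1, which carried most free RNA, the changes of Mt1 and Mt2 were -4.08 and -4.57. Mt3 was also lower (25.99 CPM ± 8.15, SD, n = 4, compared with 135.8 and 50.5 CPM; log2 fold change -1.65 ± 0.43, adjusted p = 0.017), but not called without Adult 1 (-0.87, adjusted p = 0.0749), and it lay below the carried value in each library.

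Astrocytes also had lower levels in Juvenile, for all 3 genes. The log2 fold changes were -2.09 ± 0.20 for Mt1 (adjusted p = 2.25e-05), -1.998 ± 0.264 for Mt2 (adjusted p = 0.00109) and -0.73 ± 0.14 for Mt3 (adjusted p = 0.00123), where 6.74% of genes tested were called lower. The call of Mt2 held in 16 of 18 alternative settings, at -2.19 to -1.70. The settings without it included the one without Adult 1 (-2.19). The call of Mt3 held in 17 of 18, at -0.92 to -0.43, and was lost without Adult 2+3 (-0.48). Choroid plexus cells had lower Mt1 (-0.71), Mt2 (-0.98) and Mt3 (-0.95), all called, but 29.9% of all genes were called lower there. Microglia had 208 to 330 CPM of Mt1 in Juvenile and 422 and 317 CPM in Adult, a log2 fold change of -0.55 ± 0.16 (adjusted p = 0.0276) that was not called without Adult 1 (-0.31, adjusted p = 0.332), and 12% of genes were called lower. Their Mt2 was not called (adjusted p = 0.0868), and Mt3 fell by 1.56 on the log2 scale (adjusted p = 0.0129) at levels below the carried value. That call of Mt3 held in 16 of 18 alternative settings, at -1.95 to -1.38.

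Mt1 was lower in juvenile oligodendrocytes, at 157 and 108 CPM compared with 717 and 708 CPM (log2 fold change -2.53, adjusted p = 2.98e-06, 19.2% of genes called lower), from 21 and 28 juvenile cells. In Mono/Mac Mt1 was lower as well (-1.34, adjusted p = 0.00695, 2.04% of genes called lower). That call rested on 10 cells of Adult 1 and 69 of Adult 2+3, and the change was 0.76 with an adjusted p of 0.602 when cells were named by marker score. Mt2 was lower in mural cells (-1.29, adjusted p = 0.0316, 12.8% of genes called lower). That call held in 9 of 18 alternative settings, with log2 fold changes of -1.80 to -0.46, the latter without Adult 2+3 (adjusted p = 0.444). In perivascular macrophages Mt1 was 666 to 837 CPM in Juvenile and 633 and 797 CPM in Adult, and the units overlapped (-0.07 ± 0.13, adjusted p = 0.81, 5.2% of genes called lower). Over 12 cell types, 14 of 34 combinations of gene and type were called lower in Juvenile and 0 higher by edgeR, compared with 12.7% of all combinations called lower, and DESeq2 called the same 14 lower and 0 higher. None was higher at an unadjusted p under 0.05 by edgeR either. In neurons Mt2 changed by 0.69 ± 0.38 (adjusted p = 0.315), with Mt1 at -0.75 and Mt3 at -0.33. Without Adult 1, 10 of the 14 were called, and 10 without Adult 2+3.

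**Figure D3:**
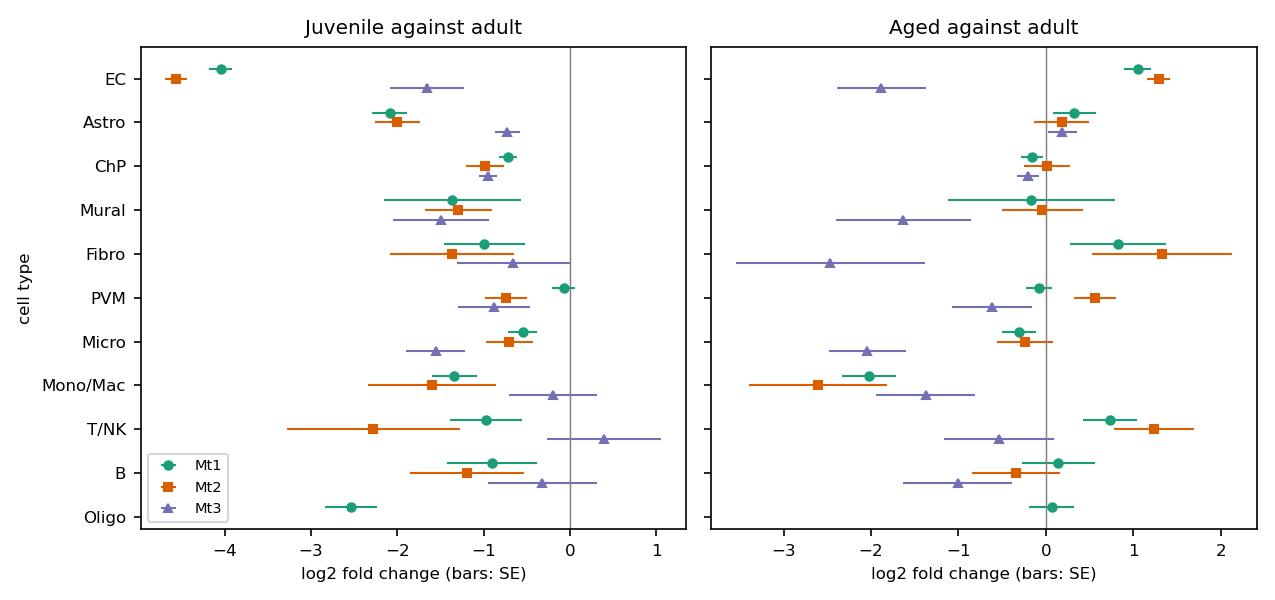
Log2 fold change of Mt1, Mt2 and Mt3 in Juvenile (left) and Aged (right) against Adult in 11 cell types, with standard errors derived from the edgeR F statistics. Neurons are not drawn (juvenile Mt2 0.69 ± 0.38). For Oligo only Mt1 passed the filter on low counts. The juvenile changes of Mt1 and Mt2 are furthest from 0 in ECs. In Aged both genes are above 0 in ECs, astrocytes, fibroblasts and T/NK cells, and called in ECs alone.

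The juvenile change was larger in ECs than in astrocytes or microglia. With each unit as a block, the change in astrocytes was less negative than that in ECs by 2.01 ± 0.14 on the log2 scale for Mt1 (adjusted p = 1.99e-30) and by 2.62 ± 0.17 for Mt2 (adjusted p = 2.38e-34), where 6.02% of genes were called. The difference for Mt3 was 0.94 ± 0.51 (adjusted p = 0.447). Between microglia and ECs it was 3.48 ± 0.27 for Mt1 (adjusted p = 1.49e-05) and 3.86 ± 0.30 for Mt2 (adjusted p = 2.94e-06), with 16.3% of genes called. For Mt3 it was 0.02 ± 0.32 (adjusted p = 0.985). Both tests rest on 10 units, 2 of them adult, so the sizes of these p-values do not measure replication and do not rank the 2 comparisons.

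At 18 months Mt1 and Mt2 were higher than in young adults in ECs. Mt1 was 1444.5 and 1507 CPM in Aged compared with 709.9 and 721 CPM in Adult, a log2 fold change of 1.05 ± 0.15 (adjusted p = 0.00268). Mt2 was 604 and 659.9 CPM compared with 261.3 and 258.5 CPM, a log2 fold change of 1.29 ± 0.13 (adjusted p = 3.45e-04). In aged ECs 2.36% of genes were called higher and 3.14% lower. With cells named by marker score the change of Mt1 was 1.03 and its adjusted p 0.062. Mt3 in ECs moved the other way, at 19.0 and 28.6 CPM in Aged, without passing the threshold (-1.88 ± 0.51, adjusted p = 0.0808) and below the carried value throughout.

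Outside ECs, Mt1 in Mono/Mac was the only combination past the threshold in the edgeR test. Fibroblasts, from 23 and 41 adult cells, changed by 0.82 ± 0.55 for Mt1 and 1.33 ± 0.80 for Mt2 (adjusted p = 0.72 and 0.685). T/NK cells changed by 0.73 ± 0.31 and 1.24 ± 0.46 (adjusted p = 0.334 and 0.238). Mural cells (-0.17 and -0.04), choroid plexus cells (-0.16 and 0.01) and B cells (0.14 and -0.34) stayed nearer to 0. The calls thus do not show that the rise was confined to ECs. Astrocytes changed by 0.32 ± 0.25 for Mt1 (adjusted p = 0.704), 0.18 ± 0.32 for Mt2 (adjusted p = 0.899) and 0.19 ± 0.17 for Mt3 (adjusted p = 0.742), with 0.309% of genes called. Microglial Mt1 changed by -0.30 ± 0.19 (adjusted p = 0.472) and Mt2 by -0.24 ± 0.32 (adjusted p = 0.759), with 2.12% of genes called. Perivascular macrophages had 681 and 629.6 CPM of Mt1 in Aged, overlapping the adult units (adjusted p = 0.884, 2.1% of genes called). Mono/Mac alone had a call in the other direction, with Mt1 at 314 and 303.1 CPM compared with 1197 and 1109.9 CPM (-2.02 ± 0.31, adjusted p = 0.00125, 0.756% of genes called lower), and this too became 0.40 (adjusted p = 0.784) under marker scores. In all, 3 of 31 combinations in 11 types were called, compared with 1.92% of all combinations of gene and type. Whether ECs differed from astrocytes in the aged change was not tested.

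EAE and adult cells are described without p-values or calls, because the genes were chosen with this comparison known. The SEs are derived from the F statistics of the edgeR fit and are not to be read as a test of it. In ECs Mt1 was 1729 and 1749 CPM in EAE, above both adult units, with a log2 fold change of 1.47 ± 0.15 (SE). The EAE ECs did not all have this level. Those in cluster 0, the main adult cluster (18% of EAE ECs), had 661.9 CPM of Mt1 and 261.6 CPM of Mt2. Its adult ECs had 767.4 and 276.9 CPM. EAE ECs in cluster 1 had 1912.6 and 1244.6 CPM, compared with 567.6 and 190.2 CPM in its 85 adult ECs. Over all EAE ECs Mt2 was 1107 and 1117 CPM, a log2 fold change of 2.29 ± 0.13. Of genes in ECs, 23% had all EAE units above all adult units. Mt3 was 19.3 and 20.9 CPM, below both adult units (-1.94 ± 0.51), as were 44.7% of genes, and below the carried value of 50.9 and 61.7 CPM in these libraries. Both EAE units were above both adult units for Mt1 in 5 of 11 cell types, for Mt2 in 8 of 11 and for Mt3 in 0 of 11, and below them for Mt3 in 9 of 11. Mt1 and Mt2 were below in Mono/Mac, at 672 and 723 CPM of Mt1 compared with 1197 and 1109.9 CPM, and 62.9 and 72.6 CPM of Mt2 compared with 322 and 167 CPM. These adult values come from 10 and 69 cells, with Mt1 at 1470.0 CPM in Adult 2 and 773.3 CPM in Adult 3, and the juvenile and aged changes against them turned direction under marker scores. Over all genes and these types, 25.3% of combinations were above and 33.4% below. Ttr outside the choroid plexus was also lower in EAE than in Adult, as given above, and its part in the Mt3 values was not tested.

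Astrocytes had log2 fold changes of 0.52 ± 0.25 for Mt1, 0.77 ± 0.32 for Mt2 and -0.34 ± 0.17 for Mt3 in EAE, from 41 and 35 EAE cells. Mt2 was 5675 and 4697 CPM in EAE astrocytes and 2505 and 3663 CPM in adult ones, so both EAE units were above both adult units, as for 17.8% of genes. Fibroblasts had the largest fold of the cell types with EAE and adult units, 2.68 ± 0.57 for Mt1 and 4.47 ± 0.82 for Mt2, but from 20 and 18 EAE cells that differed, at 2583 CPM of Mt1 in EAE 1 and 10753 CPM in EAE 2. In perivascular macrophages Mt2 was 140 and 92.4 CPM in EAE and 70.7 and 45.7 CPM in Adult (1.20 ± 0.22), and Mt1 was nearly level (0.34 ± 0.15). Microglial Mt1 was 412 and 398.5 CPM in EAE, within the adult range of 317 to 422 CPM. Choroid plexus changed by -0.10 ± 0.12 for Mt1, -0.10 ± 0.25 for Mt2 and -0.52 ± 0.13 for Mt3. Both EAE units of Mt3 (1423.6 and 1592 CPM) lay below both adult units (1818 and 2230 CPM). So did 33.4% of combinations over all genes and these types, and the share within choroid plexus was not counted.

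Mt1 was spread differently over the ECs of EAE and Aged libraries. Cells were thinned to 1500 UMIs so that depth was equal. Shallower cells were dropped, 1.21% of ECs in Juvenile, 5.3% in Adult, 13.4% in Aged and 13.1% in EAE. ECs with at least 1 UMI of Mt1 were 50.7% to 54.2% in Adult, 74.8% to 75.7% in Aged, 60.8% to 62.2% in EAE and 4.86% to 7.27% in Juvenile. Unthinned, the shares were 67.1% to 76.2%, 82.4% to 84.6%, 69.5% to 71.7% and 20.4% to 28.9%. Aged ECs thus had the highest share with Mt1, but EAE ECs the most cells with many UMIs. Cells with 11 or more UMIs of Mt1 were 4.89% and 5.2% of EAE ECs, 0.445% and 1.13% of aged ECs and 0 to 0.15% of adult ECs. The variance of Mt1 per cell was 9.79 to 10.0 times its mean in EAE, 2.21 to 2.46 times in Aged, 2.01 to 2.18 times in Adult and 1.03 to 1.15 times in Juvenile, where a value of 1 is that of counting alone.

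The 5% of ECs with the most Mt1 held 38.8% to 40.5% of its UMIs in EAE, 18.5% to 19.5% in Aged and 24.4% to 25.7% in Adult. For Mt2 they held 52.5% to 53.2% in EAE, 24.9% to 25.04% in Aged and 32.9% to 37.0% in Adult. Mt1 and Mt2 were also more closely tied within single EAE ECs, with a Pearson's r over cells of 0.8 and 0.815, compared with 0.427 and 0.442 in Aged and 0.351 to 0.394 in Adult. Spearman's rho was 0.541 and 0.538 in EAE, 0.418 and 0.443 in Aged and 0.305 to 0.364 in Adult. These correlations are descriptions over 666 to 3152 cells of 1 library each. Levels per cell were also higher in EAE, and the part of counting noise in these values was not tested. The share of ECs with Mt3 was 3.1% to 3.27% in EAE, 2.99% to 4.16% in Aged, 6.96% to 17.7% in Adult and 3% to 6.19% in Juvenile, highest in Adult 1.

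**Figure D4:**
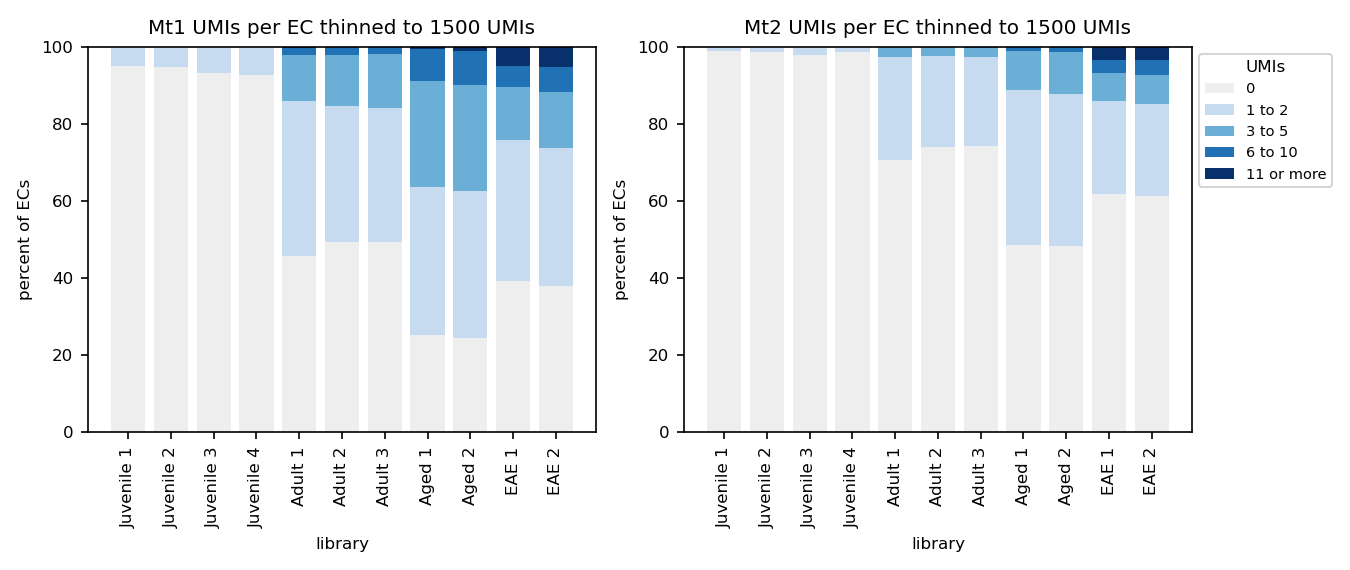
Share of ECs (percent) with 0, 1 to 2, 3 to 5, 6 to 10 and 11 or more UMIs of Mt1 (left) and Mt2 (right) in each library after thinning to 1500 UMIs. Aged libraries have the fewest cells at 0, and the EAE libraries have the largest share at 11 or more.

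ECs were further divided by their UMIs of arterial genes (Bmx, Sema3g, Gkn3, Vegfc, Efnb2, Gja4, Gja5, Hey1) and venous genes (Slc38a5, Tfrc, Nr2f2, Il1r1). A range of such a score is not a cell type, and 31.8% to 35.0% of adult, aged and EAE ECs and 12.1% of juvenile ECs lay near the limits. Mt1 was higher in the venous than in the arterial range in each adult, aged and EAE library. It was 418.7 to 508.8 CPM in the arterial and 669.5 to 822.7 CPM in the venous range of Adult, 583.6 to 598.1 and 1627 to 1880 CPM in Aged, and 719 to 738 and 1144 to 1193 CPM in EAE. The ratio of venous to arterial was 1.46 to 1.88 in Adult, 2.72 and 3.22 in Aged, and 1.66 and 1.55 in EAE. Mt2 was higher in the venous range in these libraries too, at 1.45 to 3.5 times the arterial level. The venous range was not always the highest, because ECs in neither range, 4994 of the EAE ECs, had 1724 and 1844 CPM of Mt1 and 1075 and 1163 CPM of Mt2 in EAE. In Adult 2 they had 829.8 CPM of Mt1 compared with 669.5 CPM in the venous range. Juvenile libraries had the opposite order for Mt1 in 4 of 4 (0.345 to 0.93) and for Mt2 in 3 of 4. Mt1 was 28.2 to 117 CPM there, compared with a carried value of 39.8 to 58.2 CPM in all juvenile ECs. Mt2 was 5.09 to 21.2 CPM in the arterial and 3.99 to 17.4 CPM in the venous range. At most 3.175% and 2.46% of their cells had an Mt2 UMI, so few UMIs set this order. The venous range held 2016 of 3014 juvenile but 1064 of 4554 adult thinned ECs, so the ranges are not alike across conditions. Mt3 did not differ in a steady direction, with ratios of 0.813 to 1.39 outside Juvenile.

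In EAE, ECs were also divided by Lcn2, an acute-phase gene for lipocalin that is known to be induced by inflammation in endothelium. The study itself names Lcn2 and Mt2 among genes higher in the inflammatory ECs of these EAE libraries. A higher Mt2 in Lcn2-positive cells was thus partly known beforehand. How many of all genes were higher there was not counted. After thinning, 1796 ECs had at least 1 Lcn2 UMI and 4416 had none. Mt1 was 2650.2 and 2876 CPM in the Lcn2-positive cells compared with 1128 and 1194 CPM in the negative ones, 2.35 and 2.41 times as high. Mt2 was 1817 and 2097 CPM compared with 620.7 and 617.5 CPM, 2.93 and 3.4 times as high. Mt3 was 0.837 and 1.12 times as high, with no common direction. Lcn2-positive cells had a median of 3164 and 3336 UMIs before thinning and negative cells 2370.0 and 2442, and the part of depth in the difference was not tested.

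**Figure D5:**
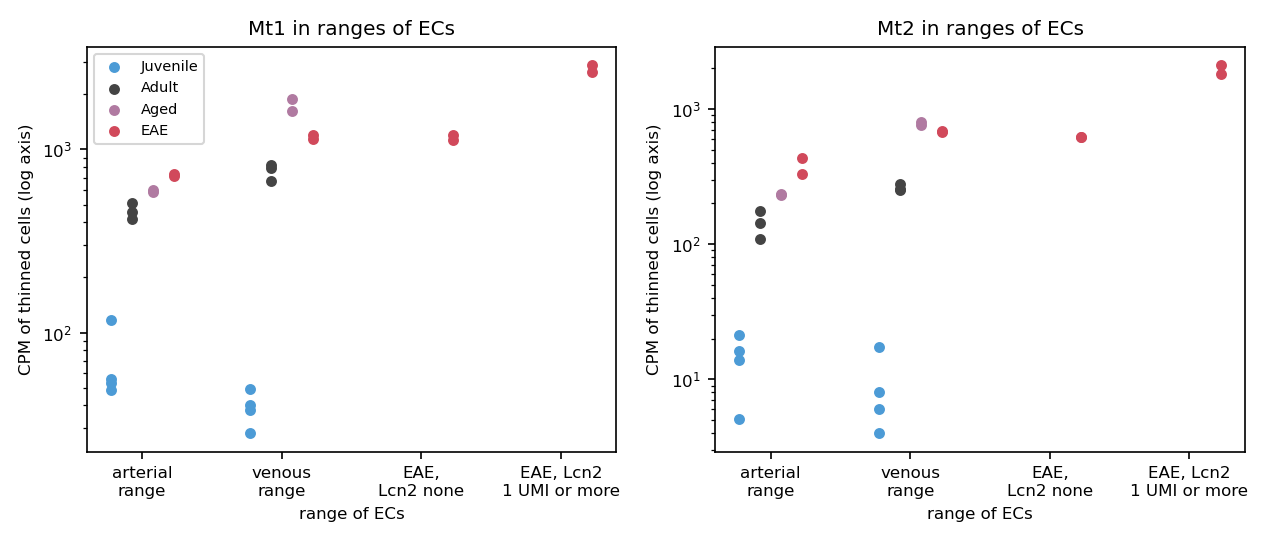
Mt1 (left) and Mt2 (right) in ranges of ECs (CPM of cells thinned to 1500 UMIs, log axis), 1 point per library and coloured by condition. In Adult, Aged and EAE the venous range lies above the arterial range, and in EAE the cells with Lcn2 lie above the cells without it.

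Genes of pathways known to act on Mt1 and Mt2 were counted beside them, on lists drawn from general knowledge with earlier results of these data known. Whether any of these pathways acted on the metallothioneins here was not tested. Of 15 glucocorticoid targets in ECs, 11 were lower in Juvenile and 1 was higher, with a median log2 fold change of -1.14 compared with -0.05 for all 13607 genes tested, of which 22% were called lower and 21.2% higher. They included Cdkn1a, a cell cycle inhibitor (259 compared with 992 CPM, adjusted p = 3.04e-08), Ddit4, an inhibitor of mTOR signaling (96.7 compared with 259 CPM, adjusted p = 1.16e-07), and Klf9, a transcription factor (73.2 compared with 251 CPM, adjusted p = 3.52e-07). Of 15 genes of IL-6 and STAT3 signaling, 5 were lower and 1 higher, with a median of -0.47, beside the same shares of all genes. Il6ra, the IL-6 receptor (5.03 compared with 41.3 CPM), Cp, the copper-carrying ferroxidase ceruloplasmin (10.1 compared with 88.1 CPM), and Cebpd were lower, while Timp1, an inhibitor of metalloproteinases, was higher (28.3 compared with 1.25 CPM).

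Zinc and copper handling genes went in both directions in juvenile ECs. Of 24 tested, 6 were higher and 2 lower, with a median of 0.05, in a comparison where 21.2% of all genes were called higher. The zinc importers Slc39a8 (440.5 compared with 192.8 CPM, adjusted p = 1.34e-06), Slc39a11 and Slc39a1 were higher. Slc30a1, a zinc exporter and itself a target of Mtf1, was lower (111 compared with 204 CPM, adjusted p = 1.57e-04), as was Cox17, a copper chaperone. Of 18 genes of the NRF2 oxidative stress response 7 were higher and 1 lower, with a median of 0.25. Those higher included Fth1, ferritin heavy chain, at 13701 compared with 2280.3 CPM (adjusted p = 8.88e-09). In juvenile astrocytes 4 of 14 glucocorticoid targets and 3 of 20 zinc and copper genes were lower by edgeR, where 6.74% of all genes were. At an unadjusted p under 0.05 these lists had 6 and 3 genes in either direction. Of 9 IL-6 and STAT3 genes in these cells 0 were called (1 at an unadjusted p under 0.05), and of 17 NRF2 genes 1 was higher and 1 lower. In juvenile microglia 7 of 14 glucocorticoid targets were lower and 1 higher, where 12% of all genes were called lower and 11.9% higher. The other lists had 3 of 24 zinc and copper genes higher and 3 lower. They had 1 of 13 IL-6 and STAT3 genes higher and 2 lower, and 3 of 18 NRF2 genes higher and 3 lower.

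In aged ECs the same lists were read against 2.36% of all genes called higher and 3.14% lower. Of 24 zinc and copper genes 0 passed the threshold by edgeR, with 5 at an unadjusted p under 0.05, and 1 of 15 glucocorticoid targets was higher (Sult1a1, 57.6 compared with 34.2 CPM, adjusted p = 0.0128). Of the IL-6 and STAT3 list, Lcn2 (44.6 compared with 6.72 CPM, adjusted p = 0.00673) and Lrg1 (48.6 compared with 17.3 CPM, adjusted p = 0.0322) were higher, and Pim1 was lower. Of the NRF2 list, Srxn1 and Gsr were higher and Hmox1, which degrades heme, was lower (16.5 compared with 37.9 CPM, adjusted p = 6.60e-04). In EAE ECs, given as counts only, both EAE units lay above both adult units for 13 of 15 IL-6 and STAT3 genes, 12 of 15 glucocorticoid targets, 10 of 18 NRF2 genes and 4 of 24 zinc and copper genes, compared with 23% of all genes in ECs. They lay below them for 0, 3, 5 and 9 genes of these lists, compared with 44.7% of all genes. The IL-6 and STAT3 list held Lcn2 and Lrg1, which the study reports as raised in inflammatory ECs of EAE. Its count was therefore partly known beforehand.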

How the data were processed

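The authors deposited 1 table of raw UMI counts per gene and cell for each of 11 libraries. Their processing notes list bcl2fastq 2.19.1.403, UMI-tools 0.5.3, STAR 2.5.3a, Subread and featureCounts 1.6.1, with build mm10. The counts were used as deposited, and 0 columns of per-sample values were left out. The study's cell filters were applied: above 500 genes, below 6000 genes, and less than 25% of UMIs from mitochondria. They were clustered (scanpy 1.11.5, 2000 variable genes without the metallothioneins, 12 components, Leiden resolution 0.8) and named from fixed markers, with score limits set after clusters were seen. Of the kept cells, 676 (1.34%) carried markers of several classes or of none and were set aside. Scrublet marked 1.51% as doublets, but 0.0914% in Aged, so leaving them out hardly alters the aged cells. The reason for the low share in Aged was not tested. The marked cells were kept.

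UMIs were summed per unit and cell type (at least 10 cells) and tested with edgeR 4.0.16 (R 4.3.3, robust quasi-likelihood, TMM, filterByExpr, condition as the only term, all conditions in the fit). Benjamini-Hochberg adjustment ran over all genes of the cell type, and calls were made at 0.05. Each SE was taken as the absolute log2 fold change divided by the square root of its F statistic. A carried level from free RNA covers choroid plexus and astrocytes only. Scripts were tested on simulated data, with 200 genes changed by 1 on the log2 scale in Juvenile. Of these, 61.5% were recovered in ECs, 50% in microglia and 21% in astrocytes. Of the calls, 9.56%, 3.85% and 0% were false in these types. Named genes were the metallothioneins, the 5 genes most correlated with each over sums of at least 50 cells (some are not reported here), and of each list at most 3 called genes per direction whose units did not overlap, by adjusted p. The members and lists were chosen with earlier results of these data known. Libraries of equal replicate number showed no steady common deviation, which cannot exclude a pairing. Alternatives were normalization, low-count filter, DESeq2 1.42.0, units, naming, doublets, cell filters and leaving out each unit.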

Additional observations from a re-analysis of the deposited data

Results flagged for a closer look

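In mural cells the library Juvenile 4 had 109.6 CPM of Mt3 while the other juvenile libraries had 46.9 to 57.2 CPM, a gap that took most of the group's range. The carried value of free RNA was also highest in Juvenile 4, at 112 CPM compared with 45.3 to 56.6 CPM, and the measured level was 0.979 times it. Its part in the gap was not tested. In neurons Juvenile 1 had 175 CPM of Mt2 while the others had 85.5 to 99.7 CPM. Of 30 groups of juvenile libraries checked for such a gap 2 had one, and chance gives about 1 in 20.

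The juvenile change differed between cell types by a test of the difference itself. For Mt1 it was less negative in astrocytes than in ECs by 2.01 on the log2 scale, and for Mt2 by 2.62. For microglia against ECs the differences were 3.48 for Mt1 and 3.86 for Mt2. With either adult unit or any juvenile library left out, 2 to 3 of the 3 genes were called in each of these comparisons.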

How the results depend on the processing

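Of 736 values under alternative settings for 52 results, 654 kept their direction and side of the threshold or stayed close to the main value, and 8 turned direction. The count of 14 juvenile calls was 9 with at least 50 cells per sum and 11 to 16 with a unit left out. The count of 3 aged calls was 5 with DESeq2, 5 without the filter on low counts, 1 with cells named by marker score and 6 without Adult 1, with 3 to 6 when a unit was left out. With the replicate number as a block it was 5, and the juvenile count was 13 with 12 of the 14 shared. Only 1 of 13 same-number pairs of libraries correlated above 0.1 (-0.188 to 0.217). With 2 libraries each in Aged and EAE, their deviations mirror each other, so this check cannot exclude a pairing. The EAE count of 13 was 14 to 17 with a unit left out, but leaving out a unit can only keep or raise this count. The count of highest levels was 26 to 27, since each unit left out takes its own entries with it. Neither of these ranges shows stability. The counts of differing changes were 2 to 3.

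Directions turned for Mt1 in Mono/Mac with marker scores (0.76 in Juvenile and 0.40 in Aged), for Mt1 in PVM without Adult 2+3 (0.10 in Juvenile and 0.0908 in Aged), for Mt2 and Mt3 in aged astrocytes without Adult 1 (-0.0148 and -0.0015), and for Mt2 in aged microglia with 30 components (0.22) or without Adult 1 (0.40). With each unit left out in turn these ranged from -0.22 to 0.10 and -0.23 to 0.0908 (PVM), from -0.0148 to 0.43 and -0.0015 to 0.44 (astrocytes) and from -0.64 to 0.40 (microglia), with 0.262 and 0.283 in astrocytes without Aged 1 and -0.385 in microglia without Aged 2. The cause was not tested. Mt1 and Mt2 in juvenile ECs were called in 18 of 18 settings, at -4.13 to -3.65 and -4.65 to -4.21. Depth limits Mt2 and Mt3 in types with few cells, and leaving out a library where 2 remain rests on the spread of the other groups. The alternative with the 5% highest doublet scores left out was chosen after seeing the data.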
